A study of Saccharomyces cerevisiae with 6 samples.

Results

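Genes for the subunits of the ATP-dependent chromatin remodelling complexes of budding yeast, Saccharomyces cerevisiae, were examined in a histone H2B mutant. The list holds 52 genes of SWI/SNF, RSC, INO80, SWR1, the ISWI complexes, Chd1 and Fun30, taken by gene symbol from the array annotation. Of these, 51 were measured among 5449 genes in all, each by a single probe set, and 50 lay above background on all 6 arrays. RSC30 has no named probe set here and was not analysed. The groups were 3 arrays of strain PY014, with wild-type histone H2B, and 3 arrays of strain WY317, in which alanine replaces a lysine of H2B (K111A). Cultures in YPD, which is rich in glucose, were harvested in mid-log phase at an OD600 of 0.35 to 0.7. No label states that the arrays of a strain stand for separate cultures, and the p-values reflect only how far these arrays differ, a spread that may be technical. They also do not say whether each strain is 1 clone, or whether other alleles differ between the strains. The wild-type arrays are labelled as the controls of a second H2B mutant too.

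Chromatin remodelling enzymes use ATP to slide, evict or restructure nucleosomes, the spools of histone protein that DNA is wound on. SWI/SNF and the related RSC complex open promoters, the ISWI enzymes and Chd1 space nucleosomes in regular arrays, INO80 positions nucleosomes next to promoters, and SWR1 exchanges histone H2A for its variant H2A.Z. All of them act on the nucleosome that contains H2B, and each is built around an ATPase of the Snf2 family. The comparison asks whether the genes that encode this machinery are themselves expressed at another level when H2B carries the substitution.

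The remodeller genes differed little between the strains. Of the 51 measured, 2 rose and 1 fell in the mutant, together 5.88%, where 14.5% of all genes passed the same threshold (limma, Benjamini-Hochberg adjusted p under 0.05 over all genes). CHD1 and SWP82 rose and IES4 fell. Of all genes 6.92% rose and 7.62% fell. The count of members was 0 without mutant array 1, 1 without mutant array 2 and 0 without mutant array 3. Of all genes, 303, 455 and 213 passed in these settings, in place of 792. After quantile normalization 6 members passed, with 3 higher and 3 lower, and 912 of all 5449 genes passed. At an unadjusted p under 0.05 there were 11 members, or 21.6%, against 31.7% of all genes. The arrays of the strains did not overlap for 15 members, or 29.4%, of which 7 were higher and 8 lower in the mutant. Of all genes, 36.7% did not overlap, 18.2% higher and 18.6% lower. SWC7, which was at background, is among the 7. Over the 50 members above background, 6 were higher and 8 lower without overlap, together 28%. Near the threshold, SWP82 passed at an adjusted p of 0.0426 in limma, and SNF11 and LDB7 were just outside at 0.0525 and 0.0547.

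The sizes were also small. Log2 changes here are differences of log2(intensity + 32), a scale that shrinks all changes, those of dim genes most. The median log2 change was 0.0008 over the members and -0.0005 over all genes, with 26 members above 0 and 25 below. Over the 50 members above background the median was -0.008, with 25 above 0 and 25 below. Without regard to sign, the median was 0.06 for both. The largest was 0.18 among the members, for IES4, and 484 genes, or 8.88%, exceeded it. For 45 of the 50 members above background the 95% interval of the change lay within 1.2-fold in either direction. The remaining 5 were IES4, SWP82, SNF11, SWI3 and RSC58. Fold limits of intervals are of intensity + 32 throughout, and would be wider for the intensity itself. Other folds in the text are ratios of mean intensities. The intervals of RSC58 and SWI3, each with 1 array far from its replicates, reached 1.32-fold and 1.30-fold. A p that misses the threshold does not show that the strains were alike, and these intervals give the differences that remain possible on this scale.

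**Figure D1:**
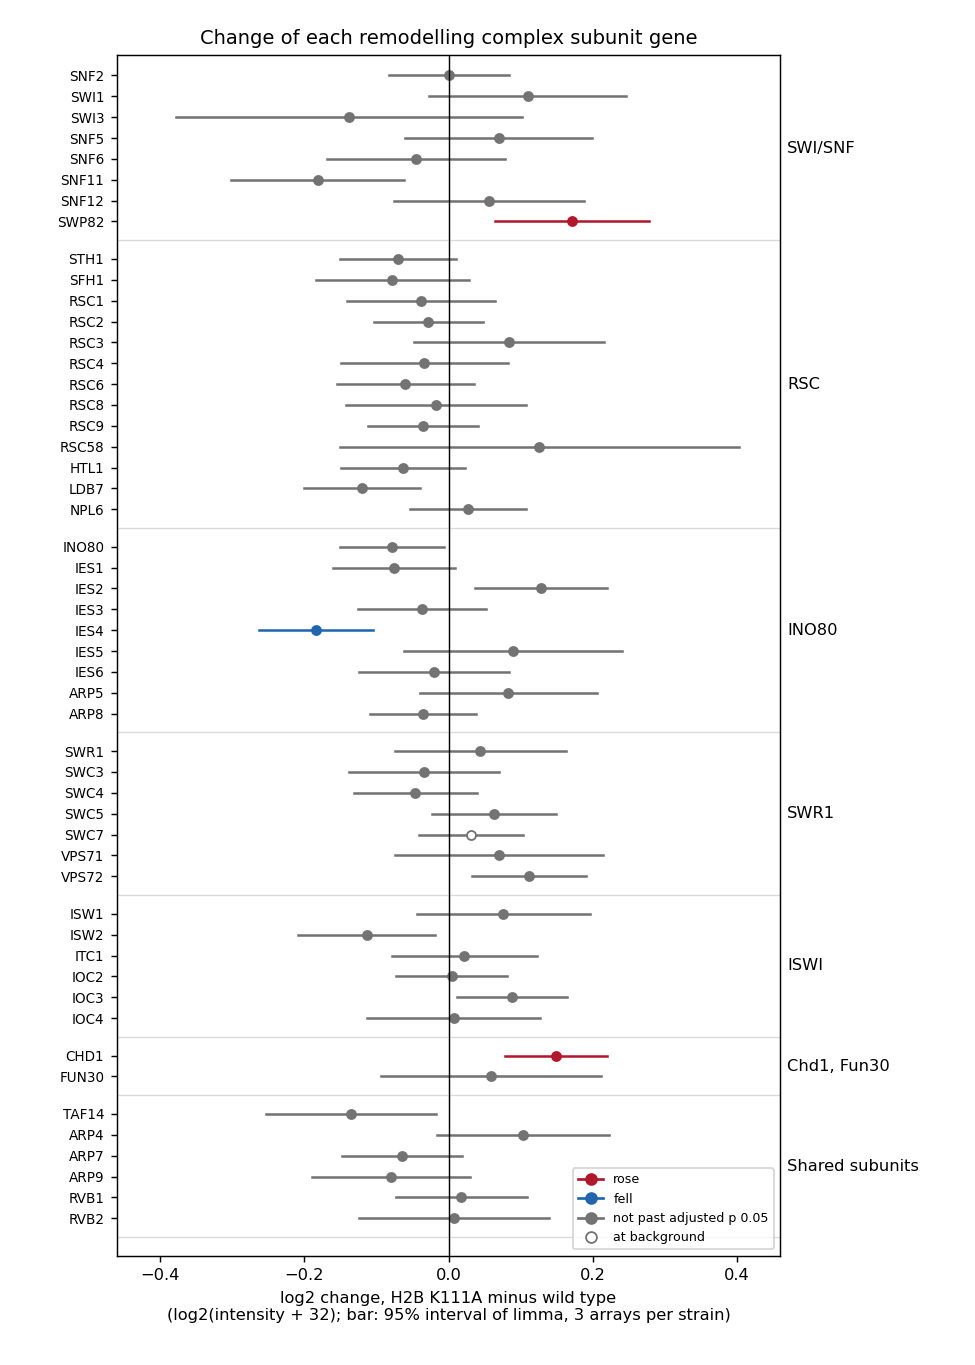
Log2 change of each of the 51 measured subunit genes, H2B K111A minus wild type, on the log2(intensity + 32) scale, with the 95% interval of limma as a bar and 3 arrays per strain. CHD1 and SWP82 are coloured as rises and IES4 as a fall, and the open circle is SWC7, which was at background; the intervals of SWI3 and RSC58 are the widest.

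**Figure D2:**
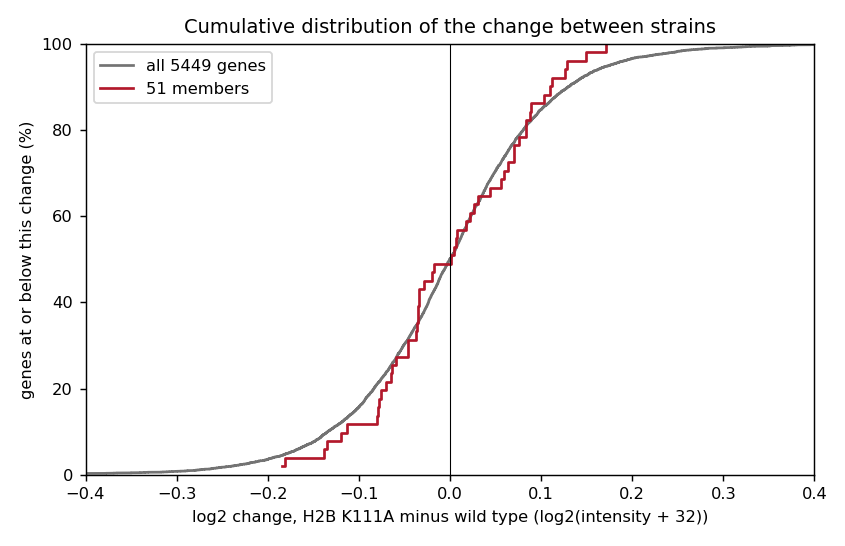
Cumulative share of genes, in percent, at or below each log2 change, for the 51 members and for all 5449 genes, drawn between -0.4 and 0.4. Both curves cross 50% close to 0, and that of the members ends at changes of -0.18 and 0.17.

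The ATPase subunits are the motors of the complexes. Of the 8 genes 1, CHD1, passed the test, or 12.5%, against 14.5% of all genes. CHD1 encodes a remodeller with a chromodomain that works as a single protein and travels with elongating RNA polymerase II. It read 171.9, 173.6 and 169.6 on wild-type arrays 1 to 3, and 195, 193 and 193.5 on mutant arrays 1 to 3. All mutant arrays lay above all wild-type arrays, and the replicates of either strain were within a few units of each other. The rise was 1.13-fold as a ratio of mean intensities, and the log2 change was 0.15 ± 0.03 (SE, 3 arrays per strain, limma adjusted p = 0.0187). The call was lost without mutant array 1, 2 or 3 (limma adjusted p = 0.0616, 0.0524 and 0.0688) and with the replicate number as a block. The log2 change stayed between 0.13 and 0.17 under all alternatives.

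The other ATPase genes did not pass. SNF2, the motor of SWI/SNF, read 260.3, 279.4 and 264.5 in wild type and 272.9, 267.1 and 264.4 in the mutant. Its strains overlapped fully, with a log2 change of 0.0008 and a 95% interval of 0.94-fold to 1.06-fold. STH1, the essential motor of RSC, read 229.9, 225.5 and 232.1 against 209.6, 217.1 and 223.8. All its mutant arrays were lower, by a log2 change of -0.07 (95% interval 0.90-fold to 1.01-fold, limma adjusted p = 0.212).

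INO80, the motor of the complex of that name, read 220.7, 219.6 and 223.1 in wild type and 207, 211.1 and 205.1 in the mutant. Its arrays did not overlap, and the log2 change was -0.08 (limma adjusted p = 0.128). SWR1, which replaces H2A with H2A.Z, read 130.5, 144.5 and 126.5 against 129.7, 147 and 140.1, so that its strains overlapped (log2 change 0.04). ISW1 and ISW2 are the 2 ISWI motors, of which Isw2 is known for repressing genes together with the DNA-binding repressor Ume6. ISW1 read 299.4, 264.1 and 304 against 303.3, 319.2 and 296.1, and its arrays overlapped. ISW2 read 255, 255.4 and 261.4 against 220.6, 241.5 and 244.8. All mutant arrays of ISW2 were lower, by a log2 change of -0.11 (limma adjusted p = 0.102), or -0.07 without mutant array 1. FUN30, which helps resect DNA ends and keep silent chromatin, read 198.6, 185.7 and 175 against 172.3, 208.7 and 206.8, and its strains overlapped. Its mutant array 1 was the lowest of the 6 and mutant arrays 2 and 3 the highest.

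**Figure D3:**
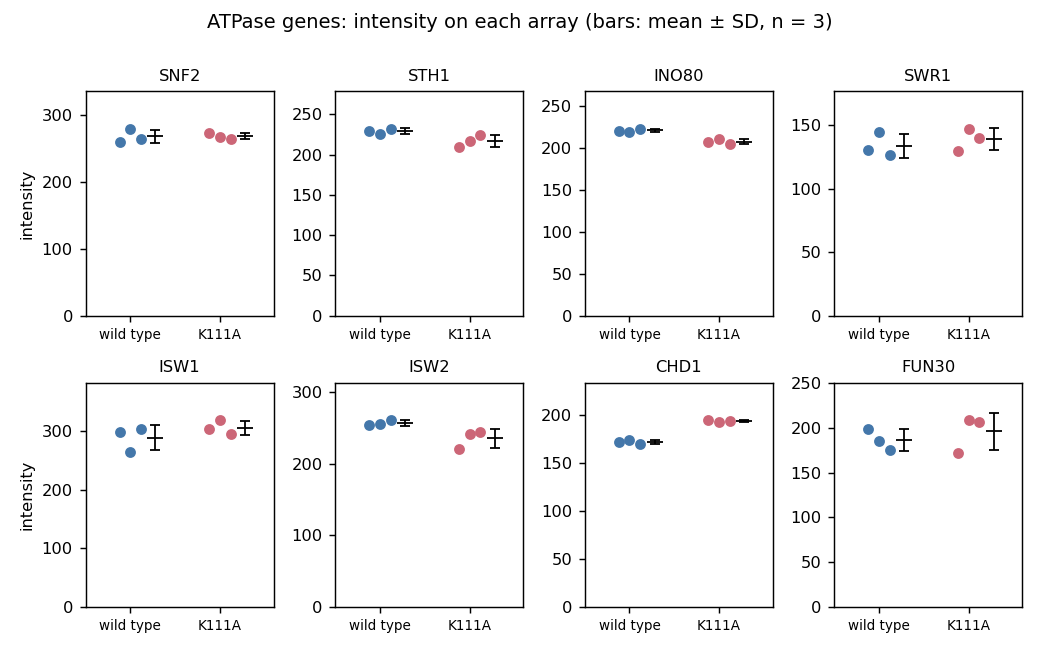
Intensity of the 8 ATPase genes on each array, with wild type at the left and H2B K111A at the right of each panel, axes from 0, and bars for the mean ± SD of 3 arrays. CHD1 shows 2 tight, separate groups (means of 171.7 and 193.8), and SNF2 shows the same level in both strains (268.1 and 268.1).

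SWI/SNF had 1 of its 8 own subunit genes past the threshold, or 12.5%, against 14.5% of all genes. This was SWP82, which encodes a peripheral subunit and rose. It read 126.6, 114.7 and 124.1 in wild type and 134.2, 138.8 and 150.7 in the mutant. The lowest mutant array lay above the highest wild-type array. The rise was 1.16-fold and the log2 change 0.17 ± 0.05 (SE, 3 arrays per strain, limma adjusted p = 0.0426). Leaving out any single array ended the call, with limma adjusted p from 0.0587 to 0.140. Without wild-type arrays 1 to 3 it was 0.0606, 0.105 and 0.0637, and without mutant arrays 1 to 3 it was 0.0587, 0.0871 and 0.140. The call was also lost with a pseudocount of 1 (0.0744) and with the replicate number as a block (0.0719). SNF11, a small subunit that binds Snf2, had the opposite sign. It read 135.3, 131.2 and 130.1 in wild type and 116.4, 101 and 121.8 in the mutant. All mutant arrays were lower, with a log2 change of -0.18 (limma adjusted p = 0.0525). It passed in 5 of the 15 alternatives, quantile normalization (0.0344) among them, and in none of the 6 that left out an array, where the log2 change was -0.12 without mutant array 2.

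The core subunits of SWI/SNF did not pass. SWI3, a scaffold subunit, read 147, 136 and 96.4 in wild type and 103.5, 114.1 and 114.2 in the mutant. Wild-type array 3 was far below the other wild-type arrays, and gave the gene the widest wild-type spread of the members above background, a coefficient of variation of 21.0%. Its log2 change was -0.14 (limma adjusted p = 0.404) with all arrays and -0.28 (0.0139) without wild-type array 3. SWI1, which activators contact, read 119.6, 98.8 and 118.9 against 119.8, 119.9 and 131, all mutant arrays being higher by a small margin (log2 change 0.11, limma adjusted p = 0.251). Without the low wild-type array 2 the log2 change of SWI1 was 0.04. SNF5, another subunit that activators contact, had means of 100.2 ± 6.21 and 106.9 ± 9.84, SNF12 of 115.9 ± 11.9 and 121.5 ± 5.02, and SNF6 of 200.2 ± 15.1 and 192.8 ± 10.3 (SD, n = 3 each). The arrays of these 3 genes overlapped.

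None of the 13 measured RSC genes passed the test in limma, where 14.5% of all genes did. LDB7 alone had an unadjusted p under 0.05, against 31.7% of all genes. RSC is the abundant and essential relative of SWI/SNF that clears nucleosomes from promoters. The log2 change was negative for 10 of the 13, and for 2734 of all 5449 genes. The median was -0.04, against -0.0005 for all genes. The median deviation of the RSC genes from their own means was 0.02, -0.01 and 0.03 on the wild-type arrays. On the mutant arrays it was -0.06, -0.03 and 0.01, so the strains overlapped. LDB7, a small accessory subunit, read 196.6, 209.7 and 207.6 in wild type and 186.2, 182.6 and 188.3 in the mutant. All its mutant arrays were lower (log2 change -0.12, limma adjusted p = 0.0547), and it passed in 2 of the 15 alternatives, quantile normalization (0.0457) and a pseudocount of 64 (0.0466).

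The module that Ldb7 belongs to, which also holds Htl1, Npl6, Rsc3 and Rsc30, had log2 changes of both signs. HTL1, the dimmest RSC gene above background, had means of 31.0 ± 0.52 and 28.3 ± 2.40, and NPL6, also called RSC7, of 180.4 ± 2.72 and 184.4 ± 6.38 (SD, n = 3 each). RSC3, a zinc cluster protein that recognises promoter DNA, read 169.1, 145.6 and 165.4 against 164.3, 164.9 and 185.1, with overlap. Its partner RSC30 was not analysed here. The bromodomain subunit genes, whose proteins bind acetylated histones, had log2 changes of -0.04 (RSC1), -0.03 (RSC2) and -0.03 (RSC4), and the arrays of all 3 overlapped. Those of SFH1, RSC6, RSC8 and RSC9, of the core, were -0.08, -0.06, -0.02 and -0.04, again with overlap.

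RSC58 was the exception in spread. It read 156.1, 155.2 and 172.8 in wild type and 147.6, 164.4 and 233.8 in the mutant. Mutant array 3 stood far above the other 5, and the coefficient of variation in the mutant was 25.1%, where the median over all genes was 3.87%. The log2 change of RSC58 was 0.13 with all arrays and -0.04 without mutant array 3, and neither passed the test (limma adjusted p = 0.517 and 0.717).

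Of the 9 genes particular to INO80 in the list, 1 fell and none rose, so that 11.1% passed, against 14.5% of all genes. IES4, a small subunit that the checkpoint kinases phosphorylate, read 111.1, 113.5 and 108.7 in wild type and 92.5, 97.6 and 91.8 in the mutant. The highest mutant array was well below the lowest wild-type array. IES4 was 1.18-fold lower, with a log2 change of -0.18 ± 0.04 (SE, 3 arrays per strain, limma adjusted p = 0.0138), the lowest adjusted p of the members. It lost the call without mutant array 1 (0.0508) or mutant array 3 (0.0614).

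IES2, which encodes an activator of the Ino80 ATPase, lay on the other side of 0. It read 120.9, 117.1 and 125.6 against 131.1, 132.7 and 142.8, with all mutant arrays higher (log2 change 0.13, limma adjusted p = 0.0634). It passed in 2 of the 15 alternatives, quantile normalization (0.0457) and median centring (0.0461). IES1 read 160.4, 158.5 and 165.8 against 152.4, 145.5 and 157.3, all mutant arrays being lower (log2 change -0.08, limma adjusted p = 0.202). IES3, IES5 and IES6 had log2 changes of -0.04, 0.09 and -0.02, and ARP5 and ARP8, actin-related proteins of the complex, of 0.08 and -0.03. The arrays of these 5 genes overlapped.

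A subunit of INO80 outside the member list also passed. NHP10, an HMG-box protein that forms a module with Ies1, Ies3 and Ies5, read 187.5, 173.7 and 165.8 in wild type and 145.7, 156 and 152.8 in the mutant. It fell, being 1.16-fold lower (log2 change -0.18 ± 0.05, SE, 3 arrays per strain, limma adjusted p = 0.0341). Its call was lost when wild-type array 1 or 2 or mutant array 1, 2 or 3 was left out, at limma adjusted p up to 0.105. A pseudocount of 1 or the replicate number as a block also ended it. NHP10 was 1 of 7 further subunit genes examined, or 14.3%, where 14.5% of all genes passed. The others, RTT102, ACT1, YAF9, DLS1, DPB4 and BDF1, did not pass, and the median log2 change of the 7 was -0.03.

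**Figure D4:**
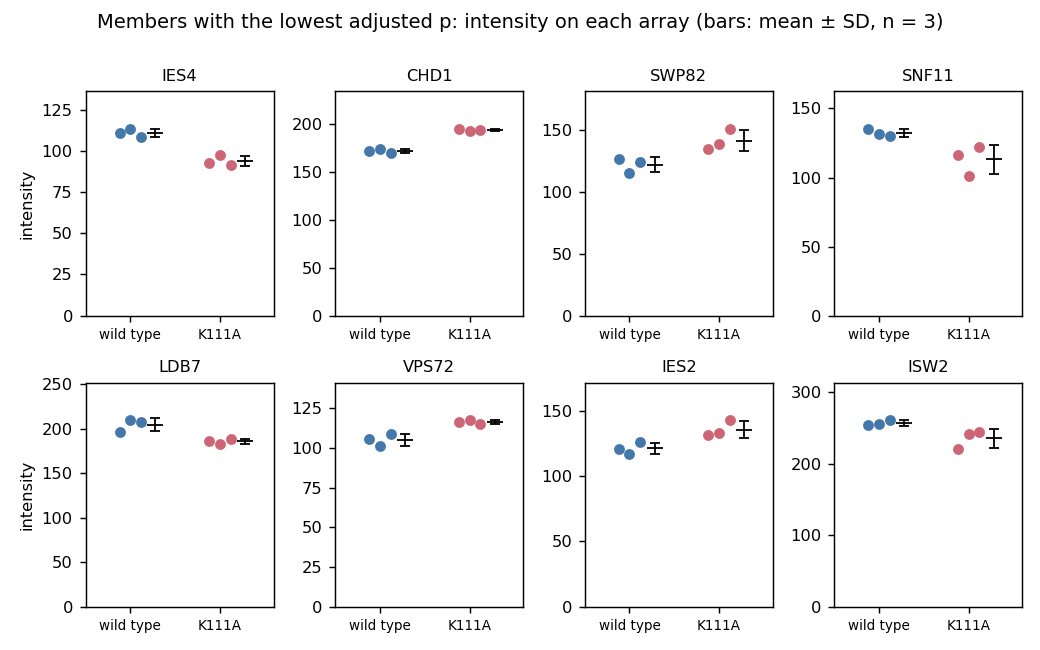
Intensity on each array of the 8 members with the lowest adjusted p, with wild type at the left and H2B K111A at the right of each panel, axes from 0, and bars for the mean ± SD of 3 arrays. The strains do not overlap in any of the 8 panels, which is no separate support, since the genes were picked by adjusted p. Over all genes, 36.7% did not overlap. Only IES4, CHD1 and SWP82 passed the threshold, and LDB7 and VPS72 differ by 1.10-fold.

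None of the 7 SWR1 genes, of which SWC7 was at background, passed in limma, where 14.5% of all genes did. VPS72 alone had an unadjusted p under 0.05, against 31.7% of all genes. VPS72, also called SWC2, binds H2A.Z for its delivery to promoters. It read 105.8, 101.4 and 108.9 in wild type and 116.6, 117.7 and 114.9 in the mutant. All mutant arrays were higher (1.10-fold, log2 change 0.11, limma adjusted p = 0.0623), and no alternative brought the gene past the threshold. VPS71, also called SWC6, read 137.5, 115.8 and 147 against 143.7, 137.8 and 142, with overlap and a low wild-type array 2. SWC3 and SWC4 had log2 changes of -0.03 and -0.05 and SWC5 of 0.06, all with overlap. SWC7 read 0.3, 0.2 and 0.2 against 1.5, 0.8 and 0.5, at or under the background level of 3.7 on all arrays, so no fold is given. The median log2 change over the 6 genes above background was 0.05.

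H2A.Z itself and its carriers are the substrate side of SWR1. HTZ1, the H2A.Z gene, read 347.1, 365.5 and 376.5 in wild type and 339.7, 330 and 330.3 in the mutant. Its mutant arrays were lower (log2 change -0.11, limma adjusted p = 0.0814). The chaperone genes CHZ1 and NAP1 had log2 changes of 0.06 and -0.04 with overlapping arrays. Of the 3 genes none passed in limma, against 14.5% of all genes. HTZ1 alone had an unadjusted p under 0.05, against 31.7% of all genes.

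None of the 6 ISWI genes passed in limma, where 14.5% of all genes did. ISW2 and IOC3 had an unadjusted p under 0.05, as had 31.7% of all genes. IOC3, the partner of Isw1 in the complex called ISW1a, read 100.4, 97 and 101.3 in wild type and 109.2, 105.1 and 109.3 in the mutant. All mutant arrays of IOC3 were higher (log2 change 0.09, limma adjusted p = 0.109). The partners in the other Isw1 complex, IOC2 and IOC4, had log2 changes of 0.004 and 0.007, and ITC1, the partner of Isw2, of 0.02. Their arrays overlapped.

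Subunits shared between complexes formed a group of 6, and none passed in limma, where 14.5% of all genes did. TAF14 alone was at an unadjusted p under 0.05, against 31.7% of all genes. TAF14, a YEATS-domain protein of SWI/SNF and INO80 that is also found in general transcription factors, read 378.9, 331.8 and 336.2 in wild type and 301.9, 315.5 and 325.9 in the mutant. Its mutant arrays were lower (log2 change -0.14, limma adjusted p = 0.112), with wild-type array 1 far above the rest, and the log2 change was -0.08 without that array. ARP7 and ARP9, the pair of actin-related proteins of SWI/SNF and RSC, had log2 changes of -0.06 and -0.08. ARP9 read 340.9, 337 and 298.4 in wild type and between 304.8 and 306.2 in the mutant, and passed only without wild-type array 3 (log2 change -0.14, limma adjusted p = 0.0465). ARP4, of INO80 and SWR1, read 224.7, 236.5 and 233.2 against 229.4, 255.3 and 269.7, with overlap (log2 change 0.10, 0.16 without mutant array 1 and 0.06 without mutant array 3). RVB1 and RVB2, the AAA ATPases of INO80 and SWR1, had means of 549 ± 26.7 and 555.8 ± 5.74, and of 438.5 ± 40.2 and 440.03 ± 11.2 (SD, n = 3 each). Their log2 changes were 0.02 and 0.008.

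Set side by side, the complexes had median log2 changes of 0.03 for SWI/SNF, -0.04 for RSC, -0.03 for INO80, 0.04 for SWR1, 0.01 for ISWI and -0.03 for the shared subunits. CHD1 and FUN30 had a median of 0.10 over 2 genes. With the shared subunits counted in each complex that holds them, the medians were -0.05 for SWI/SNF, -0.04 for RSC, -0.02 for INO80 and 0.04 for SWR1. The sign for SWI/SNF thus turned with this choice. Mean wild-type intensities ran from 100.2 to 268.1 in SWI/SNF, from 31.0 to 229.2 in RSC, from 111.1 to 244.1 in INO80, from 50.6 to 136.3 in SWR1 above background, from 99.6 to 289.2 in ISWI and from 161.8 to 549 among the shared subunits. Probe sets differ in how brightly they report a transcript, so these ranges do not order the complexes by mRNA level.

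Pairs of related genes, from the same or from different complexes, were compared within each array, as the log2 ratio of one to the other, for 8 pairs. The ratio of ISW1 to ISW2 was higher in the mutant by 0.19, with no overlap between the strains (two-sided exact permutation p = 0.1, which no comparison of 3 arrays with 3 can go below, and 0.48 adjusted over the 8 pairs). For the other 7 ratios the strains overlapped. SNF2 to STH1, SNF5 to SFH1 and SNF12 to RSC6, each a SWI/SNF gene over its RSC relative, were higher by 0.07, 0.15 and 0.12, and SWI3 to RSC8 was lower by a log2 difference of -0.12. The ratio of INO80 to SWR1 differed by -0.12, that of RSC1 to RSC2 by -0.01 and that of RVB1 to RVB2 by 0.01. Exact permutation p-values of these 7 lay between 0.2 and 1.

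Wild-type and mutant arrays overlapped in 36 of the 51 members. Over the wild-type arrays the median coefficient of variation was 4.72% over the members and 4.60% over all genes, and over the mutant arrays 3.91% and 3.87%. It exceeded 10% for 5 members above background in wild type and for 2 in the mutant. Wild-type array 2 was the lowest of the 6 arrays for 16 members, or 31.4%, against 19.1% of all genes, among them SWI1, SNF12, RSC3, IES5, VPS71 and ISW1. Wild-type array 3 was the highest for 16 members, or 31.4%, against 21.6% of all genes. The median deviation of the members was 0.006, -0.02 and 0.02 on wild-type arrays 1 to 3 and -0.03, -0.007 and 0.01 on mutant arrays 1 to 3.

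**Figure D5:**
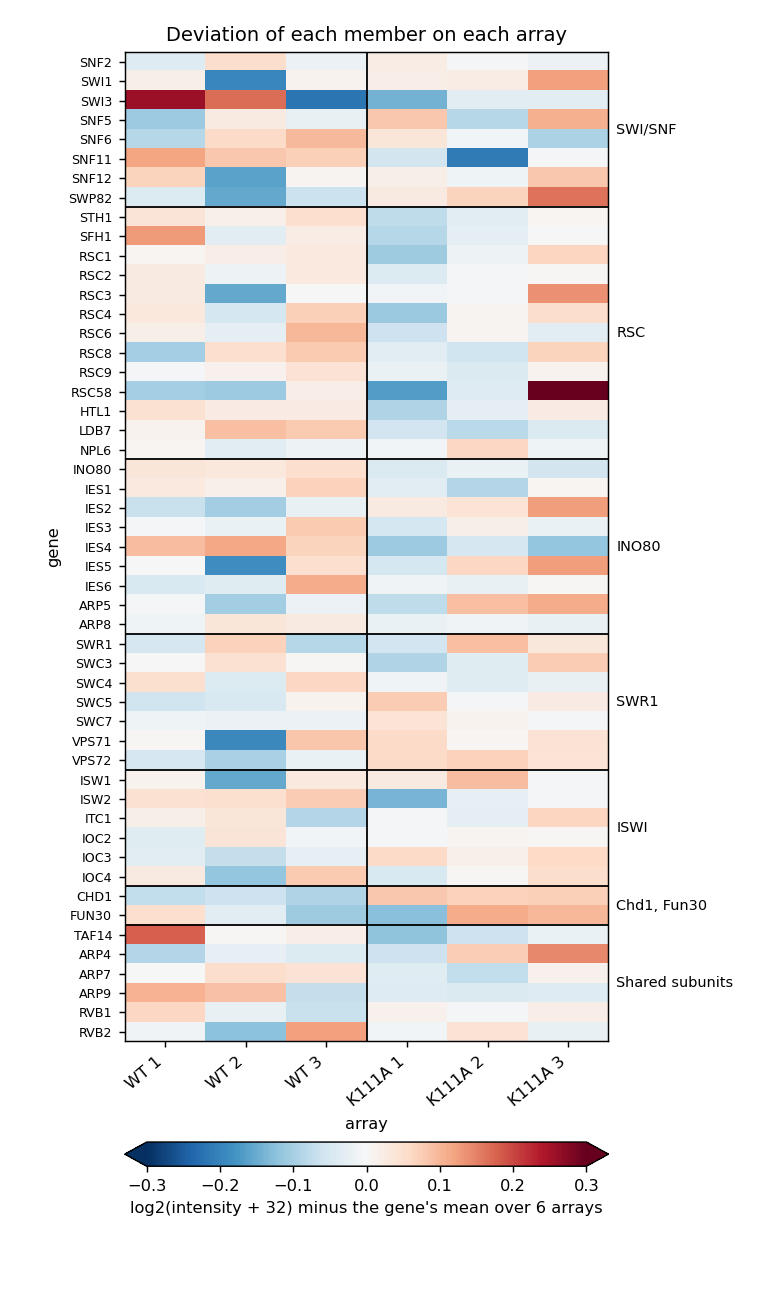
Deviation of each of the 51 members (rows, grouped by complex) on each of the 6 arrays (columns), as log2(intensity + 32) minus the gene's mean over the arrays, with colours limited to 0.3 in either direction. IES4 and CHD1 change colour between the strains, whereas SWI3 on wild-type array 3 and RSC58 on mutant array 3 stand apart from their own replicates.

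Snf2-family ATPases outside these complexes were read from a further list of 9 genes. RDH54, which acts in recombination, read 339.4, 326.6 and 308.7 in wild type and 348.7, 374.3 and 384.9 in the mutant. It rose 1.14-fold (log2 change 0.17 ± 0.05, SE, 3 arrays per strain, limma adjusted p = 0.0444). That call was lost when wild-type array 1, 2 or 3 or mutant array 2 or 3 was left out, at limma adjusted p up to 0.151. A pseudocount of 1 or the replicate number as a block also ended it. RAD54, the close relative of RDH54, had means of 71.2 ± 5.38 and 80.5 ± 1.10 (SD, n = 3 each, limma adjusted p = 0.0804). MOT1, RAD16, RAD5, RAD26, ULS1, IRC5 and IRC20 did not pass, and the median log2 change of the 9 was 0.02. The share of the 9 that passed was 11.1%, against 14.5% of all genes.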

How the data were processed

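Total RNA (about 20 µg per sample) was made into biotin-labelled cRNA and hybridised to single-channel arrays, per the labels' protocols. The deposited table holds linear intensity values with array means of 146.4 to 148.2; whether and how the authors scaled them, and on which genome build, is not given in the sources. Of 10928 probe sets, 5498 matched a RefSeq R64 gene through the annotation's gene identifier. The brightest probe set over the 6 arrays was kept, which left 5449 genes. Background was the 99th percentile, 3.7, of 1746 annotated probe sets whose gene identifier had no RefSeq match. These were taken as probe sets of another organism on the array.

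Values were taken as log2(intensity + 32) and tested with limma 3.58.1 (lmFit, eBayes; R 4.3.3) on all genes and both strains, two-sided, with no block and Benjamini-Hochberg adjustment over all genes at 0.05. The procedure was tested on simulated data. The number of arrays limits the precision. Same-strain arrays correlated at 0.997 to 0.998. Members passing the threshold, the ATPase genes and the paralogue pairs were named by rule, with other members by complex; those near the threshold or with a wide spread were given per array after their values were seen. The members and lists were chosen with earlier results of these data known. As alternatives, each array was left out in turn, and the scaling, pseudocount, dim-gene filter, replicate block, variance prior, array weights and probe set choice were varied. Figures were drawn with matplotlib 3.10.9.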

Additional observations from a re-analysis of the deposited data

How the results depend on the processing

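Of 764 member results under the 15 alternatives, 739 kept their side of the threshold, 14 lost a call, 11 gained one, and none reversed a called direction. No member was called under all alternatives, and 43 were called under none. The member count was 6 after quantile normalization (3 rose, 3 fell), 5 after median centring (3 rose, 2 fell) and 0 to 4 when single arrays were left out, with 0 without mutant array 1 or 3. The count over all genes was 912 after quantile normalization, 833 after median centring and 489 with a pseudocount of 1. It was 213 to 559 with single arrays left out (477 without wild-type array 1). The replicate numbers did not pair the arrays (correlations of deviations of -0.23, -0.06 and -0.17), and with the replicate number as a block 346 genes and 1 member, IES4, passed. The median log2 change of SWR1 was 0.088 with a pseudocount of 1, which weights the background reading of SWC7, and that of the shared subunits ran from -0.053 to -0.022 with single arrays left out. Medians over the members ran from -0.02 to 0.009, over SWI/SNF from 0.008 to 0.04, RSC from -0.06 to -0.02, INO80 from -0.05 to -0.006, ISWI from -0.001 to 0.03 and CHD1 with FUN30 from 0.08 to 0.14. Signal at background limits SWC7 only. The added constant of 32 also shrinks the changes of dim members above background. HTL1, with a wild-type mean of 31.0, had a percent change of mean intensity of -8.60 and a log2 change of -0.06.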

Other observations

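Genes known from earlier work to depend on remodellers were read from a list of 13, of which 1 rose and 2 fell, together 23.1%, where 14.5% of all genes passed. ADH2, an alcohol dehydrogenase gene repressed by glucose, read 240.3, 225.3 and 233.4 in wild type and 325.1, 330.4 and 283.5 in the mutant. It rose 1.34-fold (log2 change 0.38 ± 0.05, SE, 3 arrays per strain, limma adjusted p = 0.0056), and it passed under all 15 alternatives. HO, the mating-type switching endonuclease gene and a classic SWI/SNF target, read 223.1, 218.6 and 234.9 against 189.9, 203.1 and 197.1. It fell, being 1.15-fold lower (log2 change -0.17, limma adjusted p = 0.0246). The call was lost without wild-type array 1 or 3 or mutant array 1 or 3, at limma adjusted p up to 0.0838. It was also lost with the replicate number as a block. GAL1, of galactose use, read 30, 29.4 and 32.4 against 20.3, 25.8 and 25.5 and fell (log2 change -0.17, limma adjusted p = 0.0447), but lost the call in 10 of the 15 alternatives, whichever single array was left out among them. Its log2 change was -0.35 with a pseudocount of 1, -0.11 with one of 64 and -0.12 without mutant array 1. SUC2, INO1, PHO5, PHO8, PHO84, RNR3, POT1, SER3, REC104 and HSP82 did not pass.

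Of 5 general regulators that bind promoters where RSC also acts, none passed in limma, against 14.5% of all genes. An unadjusted p under 0.05 was found for 3 of the 5, and for 31.7% of all genes. All 5 had negative log2 changes, as had 2734 of all 5449 genes. The values were -0.10 for RAP1, -0.09 for ABF1, -0.05 for REB1, -0.14 for CBF1 and -0.09 for MCM1. The arrays of the strains did not overlap for RAP1 and CBF1, or 40% of the 5 against 36.7% of all genes. The pair had limma adjusted p of 0.0940 and 0.0860. CBF1 read 106, 93.9 and 91.7 in wild type and 81.7, 83.8 and 89.7 in the mutant.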
